A study of Mus musculus with 4 samples.

Results

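Scavenger receptors are surface and endosomal proteins with which macrophages take up modified lipoproteins, dying cells, microbial products and plasma complexes. The 10 genes described here were listed by name: Cd36, Scarb1 and Scarb2 of class B, Msr1 and Marco of class A, Cd68, the mannose receptor Mrc1, the haemoglobin receptor Cd163, Stab1 and Lrp1. All 10 were among the 40213 gene symbols measured by RNA sequencing in RAW264.7 cells, a macrophage line derived from mouse tumour tissue that was transformed by a leukaemia virus. The cells had attached and were then kept for 48 h with the test material before RNA was extracted. According to their titles, 2 libraries came from cells with Gel and 2 from cells with CuNZ@Gel. No further treatment is given for either group, the labels name CuNZ@Gel alone in the treatment text of every library, and they do not spell out CuNZ. The labels do not say whether the 2 libraries of a group were separate cultures. The p-values therefore reflect library-to-library spread, possibly technical.

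Class B receptors span the membrane at both ends of the protein. Cd36 binds oxidized lipoproteins, thrombospondin and long-chain fatty acids, and Scarb1 exchanges cholesterol with high-density lipoprotein. Class A receptors are collagen-like trimers that bind polyanions such as acetylated lipoprotein. In foam cells of the arterial wall, Cd36 and Msr1 are known to carry much of the uptake of modified lipoprotein, and the nuclear receptor PPAR gamma and the antioxidant factor NRF2 are both known to act on the Cd36 gene.

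The promoter windows of the receptors that rose at least 2-fold are shown first, with that of Cd68 beside them as the receptor that did not rise. They reach from 250 bases before to 50 bases after the RefSeq start (build GRCm38.p6, each read 5′ to 3′ along the gene's strand). Msr1 and Scarb1 had no entry, and 8 of the 10 genes did. Capitals mark matches, on either strand, to the motifs searched, which were the antioxidant response element core TGACNNNGC, the PPAR direct repeat (2 copies of AGGTCA, 1 base apart), the PU.1 core AGGAAGT, the AP-1 site TGACTCA, the GC box GGGCGG, the TATA box TATAAA and the E-box CACGTG.
Cd36, chr5:17835847-17836146, minus strand: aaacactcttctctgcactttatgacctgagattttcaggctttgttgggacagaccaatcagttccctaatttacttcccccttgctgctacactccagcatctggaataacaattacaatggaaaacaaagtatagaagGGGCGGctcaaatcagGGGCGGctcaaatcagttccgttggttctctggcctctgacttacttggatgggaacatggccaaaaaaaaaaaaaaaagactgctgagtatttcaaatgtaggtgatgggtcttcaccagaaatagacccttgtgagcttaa
Lrp1, chr10:127621099-127621398, minus strand: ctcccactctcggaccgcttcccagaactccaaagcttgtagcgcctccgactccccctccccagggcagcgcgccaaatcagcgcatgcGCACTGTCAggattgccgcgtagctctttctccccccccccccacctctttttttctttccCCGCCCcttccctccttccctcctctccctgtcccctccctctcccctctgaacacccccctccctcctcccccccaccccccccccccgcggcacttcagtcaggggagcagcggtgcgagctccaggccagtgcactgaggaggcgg
Mrc1, chr2:14229164-14229463, plus strand: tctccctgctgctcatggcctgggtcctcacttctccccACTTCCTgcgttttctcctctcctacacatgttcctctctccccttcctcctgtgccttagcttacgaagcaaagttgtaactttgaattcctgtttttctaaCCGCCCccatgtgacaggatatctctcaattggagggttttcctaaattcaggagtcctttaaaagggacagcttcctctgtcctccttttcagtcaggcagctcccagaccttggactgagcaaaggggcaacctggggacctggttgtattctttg
Stab1, chr14:31168592-31168891, minus strand: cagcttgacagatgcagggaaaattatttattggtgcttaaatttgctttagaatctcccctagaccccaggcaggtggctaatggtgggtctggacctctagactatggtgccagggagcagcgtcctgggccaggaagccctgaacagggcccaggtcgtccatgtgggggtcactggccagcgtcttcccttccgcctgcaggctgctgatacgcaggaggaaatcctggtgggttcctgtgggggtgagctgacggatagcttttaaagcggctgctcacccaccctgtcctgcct
Cd68, chr11:69666121-69666420, minus strand: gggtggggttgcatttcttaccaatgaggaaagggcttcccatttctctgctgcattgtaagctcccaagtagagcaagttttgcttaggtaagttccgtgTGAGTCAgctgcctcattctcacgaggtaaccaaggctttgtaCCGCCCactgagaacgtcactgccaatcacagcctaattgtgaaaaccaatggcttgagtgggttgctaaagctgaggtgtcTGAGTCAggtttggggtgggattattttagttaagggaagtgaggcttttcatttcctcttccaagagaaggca
The Cd36 window held 2 GC boxes in the forward direction. They lay in a direct repeat of 2 copies of a 16-base unit, AGGGGCGGCTCAAATC, between 111 and 80 bases before the start. Of 32851 windows of the same length, 29 (0.0883%) held a direct repeat of a 16-base unit that was not itself made of units of 8 bases or fewer. Only units of 16 bases, the length seen in the Cd36 window, were searched, so this share leaves out repeats of other lengths. A GC box was found in 5 of the 8 receptor windows (Cd36, Scarb2, Cd68, Mrc1 and Lrp1) and in 35.7% of all windows. The antioxidant core was found in Scarb2 and Lrp1 and in 12.4% of all windows, and the letters were not in the Cd36 window. The PU.1 core was found in Mrc1 (9.35% of all windows), and 2 AP-1 sites were found in Cd68 (5.20%). The PPAR repeat (0.0396%), the TATA box (13.6%) and the E-box (7.15%) had no match in the receptor windows. No matches overlapped. The first 30 bases after the start were part of a GENCODE vM21 transcript for Marco, Scarb2, Mrc1, Stab1 and Lrp1, and of none for Cd36, Cd68 or Cd163, so these windows mark 1 annotated start and need not be the one used in these cells.

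Expression was deposited as log2(x + 1), where x was the CPM value (reads of a gene relative to all reads of its library) divided by 1 factor per library, called scaled CPM here. The single comparison sets CuNZ@Gel against Gel. Unless called a fold, a change is the difference of group means on that log2 scale, which understates the change of weakly expressed genes. It was tested with limma across 11588 genes that reached 1 scaled CPM in 2 or more libraries. Reads recovered from the values came to between 13716000 and 14880000 per library. Libraries of one group correlated across tested genes at a Pearson r of at least 0.995, and libraries of different groups at 0.930 to 0.938, where genes are not independent replicates. All 12 macrophage markers listed passed the filter on low values, and 7 of them were raised and 3 lowered, beside 32.2% and 34.8% of all tested genes. Of these markers, Lyz2, Csf1r and Adgre1, all raised, were present in every library, with Adgre1 between 77.1 and 149 scaled CPM. The lowered markers Fcgr1, Tyrobp and Cx3cr1 were present in every library too, and fell by 0.82, 0.82 and 0.21. Of 11 markers of tissue-resident macrophages, 2 passed the filter and both were raised. Cd5l rose by 2.61, from 0.0725 and 0.156 to 6.18 and 5.46 scaled CPM, and entered the test through CuNZ@Gel alone. Siglec1, a sialic acid-binding receptor, rose by 1.36, from 5.58 and 5.14 to 17.3 and 13.6 scaled CPM. The sum of the list went from 5.65 and 5.45 to 23.8 and 19.7 scaled CPM, and its part in the receptor values was not tested. Timd4, Clec4f, Vsig4 and F13a1 were at 0 throughout. The RNA make-up of the groups differed: cytosolic ribosomal protein genes took 10.5% to 10.9% of the signal in Gel and 5.32% to 5.82% in CuNZ@Gel. The single gene Gm26917 took 11.8% and 11.9% in Gel and 7.2% and 7.1% in CuNZ@Gel. Mitochondrially encoded protein genes went the other way, from 7.6% and 8.4% to 9.8% and 9.4%. The part of these differences in the receptor values was not tested.

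Of the 10 receptors, 7 were raised in CuNZ@Gel, 1 was lowered and 2 were too low to test. Cd36 stood far above the others, with a 27.1-fold higher mean in CuNZ@Gel, whereas the other raised receptors differed by between 1.33-fold and 5.76-fold. Cd68, the most abundant member, was 1.17-fold lower. Over all tested genes, 67.1% changed at an adjusted p under 0.05, with 32.2% raised and 34.8% lowered, so that a call by itself was common in this comparison. A rise of at least 1 was seen for 7.06% of tested genes and for 5 of the 8 tested receptors: Cd36, Stab1, Mrc1, Lrp1 and Msr1. With a correction for the length and GC content of transcripts, Msr1 (0.88) and Lrp1 (0.59) were under 1 and Scarb1 (1.03) was above it. Mrc1 and Stab1 had less than 1 scaled CPM in a Gel library and entered the test through their higher group. Of the other 6 tested receptors, 5 were raised and 1 lowered, with a median change of 0.97 against -0.03 over all tested genes. Against a minimum fold of 1.5, which 8.76% of tested genes passed as raised and 8.11% as lowered, Cd36, Msr1, Scarb1, Mrc1, Stab1 and Lrp1 passed and Scarb2 and Cd68 did not. The receptors were picked with earlier results of these data known, so these counts describe them and are not independent evidence.

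**Figure D1:**
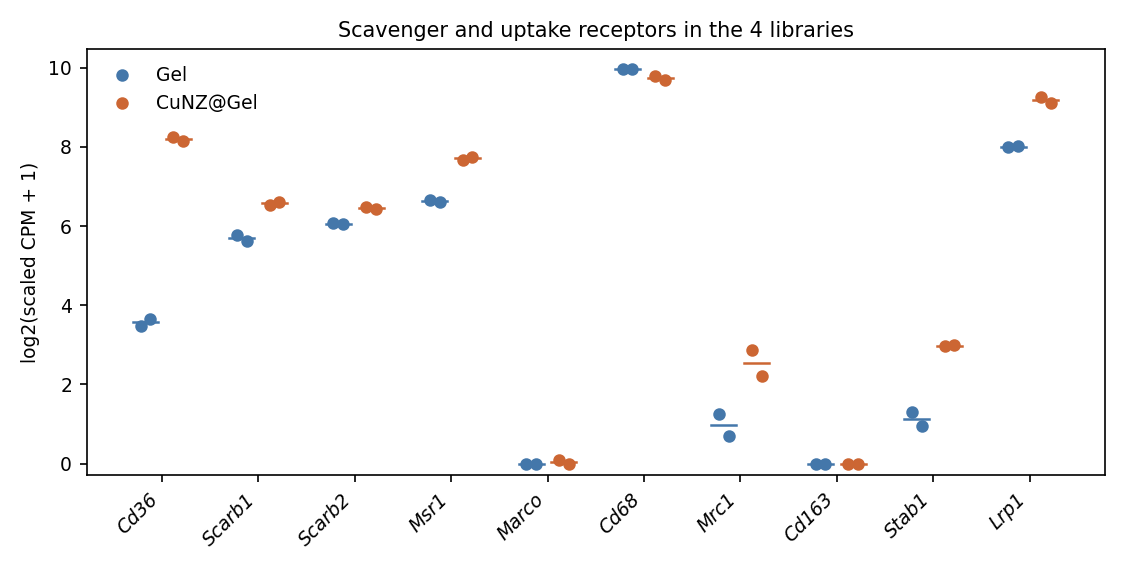
Level of each receptor in the 4 libraries, as log2(scaled CPM + 1) on the vertical axis; points are libraries and short lines the mean of the 2 libraries of a group. Cd36 moves from 10.2 and 11.6 scaled CPM to 305 and 285, Cd68 lies highest, and Marco and Cd163 lie at or near 0.

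Cd36 had 10.2 and 11.6 scaled CPM in Gel replicates 1 and 2, and 305 and 285 in CuNZ@Gel replicates 1 and 2. The groups did not overlap, and the lowest CuNZ@Gel library lay far above the highest Gel library; groups that do not overlap were seen for 83.2% of all tested genes. The means were 10.9 ± 0.979 and 295 ± 13.8 scaled CPM (SD, n = 2 per group), and the change was 4.64 with an SE of 0.083 (limma adjusted p = 2.01e-20). These values rested on 141 and 149 reads in Gel against 4835 and 4495 in CuNZ@Gel. From counting error alone, the 95% exact interval of the ratio ran from 24.1 to 30.6. Cd36 was the fourth most raised of the tested genes. Within a library, it ranked 8490th and 8207th among all symbols in Gel, and 394th and 436th in CuNZ@Gel. Over 13 alternative ways of processing, the change of Cd36 lay between 4.47, with a correction for the length and GC content of transcripts, and 4.82, with libraries scaled by total reads only.

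The genes nearest to Cd36 over the 4 log2 values, by Euclidean distance, were Gclm (distance 1.05), Acod1 (1.18), Rnf128 (2.31), Slc11a1 (2.38) and Akr1b8 (2.48). Gclm, the regulatory subunit of glutamate-cysteine ligase, had 12.4 and 14.6 scaled CPM in Gel and 189 and 178 in CuNZ@Gel. Acod1, which makes itaconate, had 7.32 and 7.71 in Gel and 186 and 181 in CuNZ@Gel. Both began at a level like that of Cd36 and ended below it. With 2 groups of 2 libraries, this distance reflects the level and the difference between groups.

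**Figure D2:**
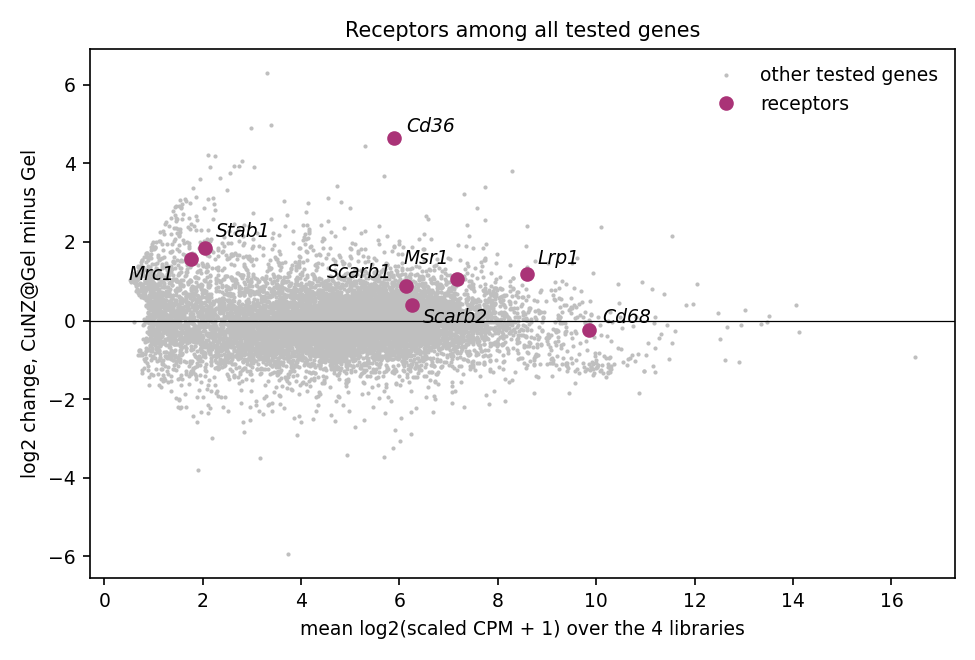
Log2 change (CuNZ@Gel minus Gel, vertical) against mean log2(scaled CPM + 1) over the 4 libraries (horizontal) for 11588 tested genes in grey and the 8 tested receptors in purple. Cd36 lies near the upper edge at 4.64, while Scarb2 (0.41) and Cd68 (-0.23) lie within the bulk of genes at their level.

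The other class B receptors moved far less. Scarb1, the receptor for high-density lipoprotein, had 54.2 and 48.3 scaled CPM in Gel and 92.1 and 97.4 in CuNZ@Gel, without overlap. It rose 1.85-fold, by 0.88 with an SE of 0.079 (limma adjusted p = 3.61e-09). Scarb2, which resides in the lysosomal membrane, had 66.1 and 64.8 scaled CPM in Gel and 88.6 and 85.4 in CuNZ@Gel. This was a rise of 1.33-fold, or 0.41 with an SE of 0.073 (limma adjusted p = 5.14e-05), and it was 0.22 with the length and GC correction. The 3 genes of this class therefore spanned changes from 0.41 to 4.64, and the difference between them was not tested.

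Of the class A receptors, Msr1 was present and Marco was not. Msr1, the macrophage receptor for acetylated lipoprotein, had 100.4 and 97.2 scaled CPM in Gel and 202 and 215 in CuNZ@Gel. The groups did not overlap, and Msr1 rose by 1.07 with an SE of 0.066 (limma adjusted p = 8.04e-12), or by 0.88 with the length and GC correction. Marco, known for the uptake of particles and bacteria, had 1 read in CuNZ@Gel replicate 1 and 0 in the other libraries. A count of 0 allows up to 0.217 and 0.234 scaled CPM in Gel replicates 1 and 2, and 0.190 in CuNZ@Gel replicate 2, from counting error only. Neither Marco nor the haemoglobin receptor Cd163, which was at 0 in all 4 libraries, could be compared at this depth.

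Cd68, also called macrosialin, sits in late endosomes and lysosomes and is used as a general macrophage marker. It had 1002 and 1003 scaled CPM in Gel and 880 and 834 in CuNZ@Gel, so that the groups did not overlap. The change was small, -0.23 with an SE of 0.059 (limma adjusted p = 0.00192). It depended on the scaling: with libraries scaled by total reads only, which raised the median change of all genes by 0.18, Cd68 was at -0.04 (limma adjusted p = 0.584). With the length and GC correction it was at 0.08 (limma adjusted p = 0.202). The ratio of Cd36 to Cd68 does not depend on the scaling of libraries, and it went from 0.0102 and 0.0116 in Gel to 0.346 and 0.342 in CuNZ@Gel. The ratio of Scarb2 to Cd68 went from 0.0660 and 0.0646 to 0.101 and 0.102.

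The large endocytic receptors rose too, from very different levels. Lrp1, which takes up protease complexes, apolipoprotein E remnants and many other ligands, had 254 and 259 scaled CPM in Gel and 615 and 555 in CuNZ@Gel. It rose 2.28-fold, by 1.18 with an SE of 0.062 (limma adjusted p = 7.17e-13). Lrp1 has the longest transcript of the 10, at 14888 bases, and across tested genes Pearson's r between the change and log2 transcript length was 0.308, where genes are not independent replicates. With the length and GC correction, the change of Lrp1 was 0.59 (limma adjusted p = 4.22e-09). Lrpap1, its chaperone in the endoplasmic reticulum, had 67.8 and 70.9 scaled CPM in Gel and 90.2 and 94.3 in CuNZ@Gel, a rise of 0.41.

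Stab1, an endocytic receptor for acetylated lipoprotein and matrix fragments, had 1.45 and 0.935 scaled CPM in Gel and 6.81 and 6.92 in CuNZ@Gel. Both CuNZ@Gel libraries lay above both Gel libraries, on 20 and 12 reads against 108 and 109. It rose by 1.85 with an SE of 0.183 (limma adjusted p = 1.59e-08), and its ratio of 5.71 had an exact 95% interval from counting of 3.93 to 8.56. Mrc1, the mannose receptor, had 1.38 and 0.622 scaled CPM in Gel and 6.30 and 3.62 in CuNZ@Gel, on 19, 8, 100 and 57 reads. It rose by 1.56 with an SE of 0.228 (limma adjusted p = 3.91e-06), although the 2 libraries of each group differed from each other more than for any other tested receptor relative to their mean. Its counting interval ran from 3.24 to 7.67 around a ratio of 4.90. The other genes of the mannose receptor family, Mrc2, Pla2r1 and Ly75, were at 0 in both Gel libraries and reached at most 0.190 in CuNZ@Gel.

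**Figure D3:**
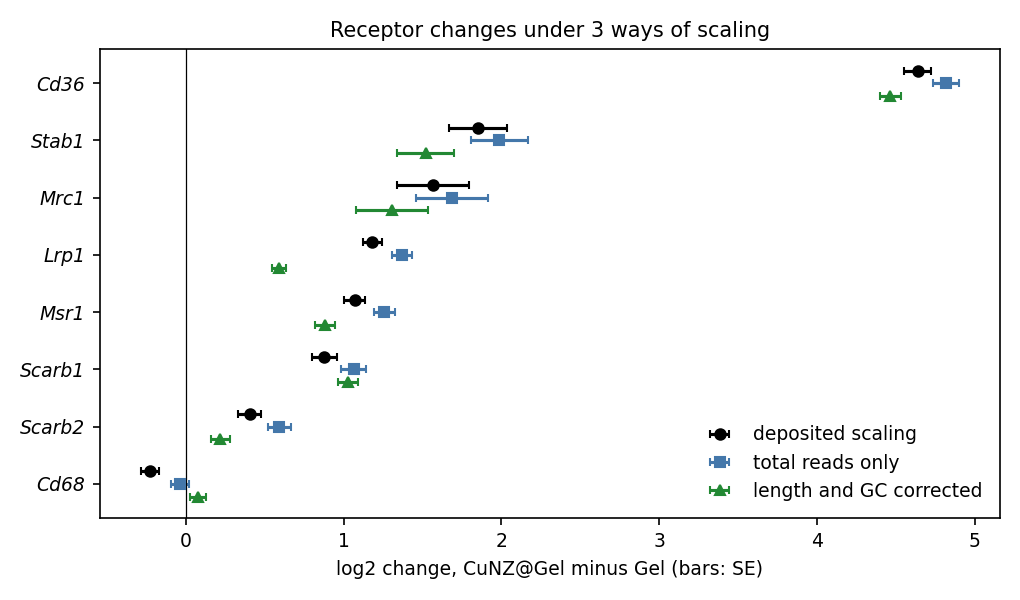
Log2 change (CuNZ@Gel minus Gel, horizontal; bars are SE) of the 8 tested receptors with the deposited scaling, with total reads only and with the length and GC correction. Cd36 stays between 4.47 and 4.82, Lrp1 moves from 1.18 to 0.59 with the correction, and Cd68 crosses 0.

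Levels were set against each other per kilobase of the longest coding transcript in GENCODE vM21. In Gel the order was Cd68 (815 and 816 scaled CPM per kilobase), Msr1 (27.6 and 26.7), Scarb1 (21.5 and 19.2), Lrp1 (17.1 and 17.4), Scarb2 (14.1 and 13.8) and Cd36 (3.00 and 3.41). Stab1 and Mrc1 followed with overlapping levels at 0.116 to 0.256. In CuNZ@Gel, Cd36 was second to Cd68, with 89.7 and 83.9 scaled CPM per kilobase against 715 and 678. Msr1 followed with 55.5 and 59.2. Lrp1 (41.3 and 37.3) and Scarb1 (36.5 and 38.7) overlapped in CuNZ@Gel, and so did Mrc1 and Stab1. Of the summed per-kilobase level of the 10 receptors, Cd36 made up 0.335% and 0.381% in Gel and 9.34% and 9.16% in CuNZ@Gel. The share of Cd68 went from 90.7% and 91.0% to 74.6% and 74.0%.

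Further scavenger receptors, from a list of 19 genes of which 18 were in the files, moved both ways. Of 11 tested, 7 were raised and 3 lowered (median 0.47, against -0.03 over all tested genes, of which 32.2% were raised and 34.8% lowered). Of the 7 raised, Cd5l, Olr1 and Ssc5d had less than 1 scaled CPM in both Gel libraries and entered the test through CuNZ@Gel alone. Cd44, the hyaluronan receptor, had 101.5 and 104 scaled CPM in Gel and 270 and 274 in CuNZ@Gel, a rise of 1.40. Colec12, a collectin of the class A group, rose by 0.47, or 0.06 with the length and GC correction (limma adjusted p = 0.315). Cd5l, a secreted protein with scavenger receptor cysteine-rich domains, had 3 reads over both Gel libraries and 184 over both CuNZ@Gel libraries. Its ratio was 51.7, and the exact 95% interval from counting was 17.4 to 253. Olr1, the lectin-like receptor for oxidized lipoprotein, had 5 and 63 reads, a ratio of 10.6 with an interval from 4.32 to 33.8. Lgals3bp, a secreted galectin-binding protein, fell by 0.43. Clec7a, a receptor for beta-glucans, did not pass, at 74.1 and 74.3 scaled CPM in Gel and 66.8 and 71.4 in CuNZ@Gel (limma adjusted p = 0.231). Without the filter on low values, 7 of 18 genes of this list were raised and 1 lowered, with a median of 0.07.

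Of 13 tested genes on the list of Lrp genes, related receptors, adaptors and sorting receptors, 10 were raised and 1 lowered (median 0.42), beside 32.2% and 34.8% of all tested genes. Corrected for gene length and GC content, the list had 7 raised members, 1 lowered member and a median of 0.21. Lrp8, a receptor for apolipoprotein E and reelin, had 15.1 and 14.7 scaled CPM in Gel and 50.1 and 44.9 in CuNZ@Gel, a rise of 1.61. Lrp11 rose by 1.63, from 2.68 and 2.10 to 10.2 and 8.82 scaled CPM. Sorl1, a sorting receptor, fell by 0.44. Lrp3 was at 0 in all 4 libraries.

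Genes that recognise and engulf dying cells moved in both directions, with 11 of 23 tested raised and 9 lowered (median 0.17, or 0.38 with total reads only). Among those raised, Adgrb1 had less than 1 scaled CPM in both Gel libraries and entered the test through CuNZ@Gel alone. Over all tested genes, 32.2% were raised and 34.8% lowered. With total reads only, the medians of the lists that follow were higher too, and each is given beside its main value. Pros1 and Mfge8, secreted bridging proteins, rose by 1.83 and 0.92, and Calr, a chaperone that marks dying cells, by 0.83. Gas6, a bridging protein of the same kind as Pros1, fell by 1.16, from 124 and 117 to 52.7 and 54.2 scaled CPM. Tyrobp, a signalling adaptor of myeloid receptors, fell by 0.82. Mertk, a receptor for Gas6 and Pros1, was too low to test, at 0.218 to 0.883 scaled CPM. Axl, another such receptor, had 6.60 and 7.79 in Gel and 8.76 and 9.71 in CuNZ@Gel and did not pass (limma adjusted p = 0.0578). Axl passed with total reads only (0.49, limma adjusted p = 0.00609), with relative log expression factors (0.34, limma adjusted p = 0.0448) and without Gel replicate 2 (0.43, limma adjusted p = 0.0367). Without Gel replicate 1, 7 genes of this list were raised in place of 11.

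**Figure D4:**
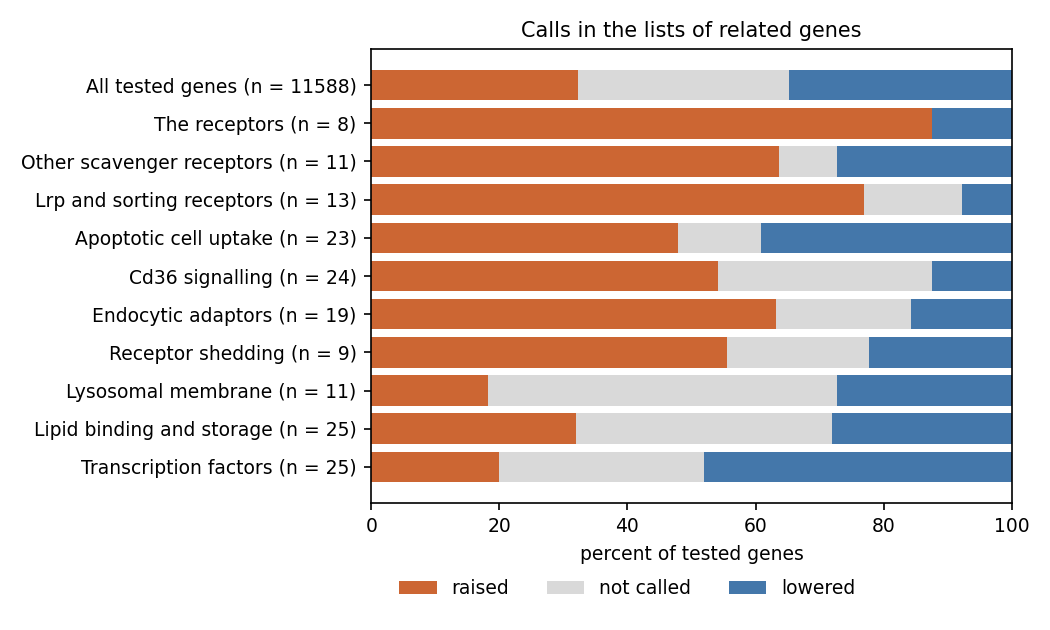
Share of tested genes raised, not called and lowered in CuNZ@Gel (limma adjusted p under 0.05), for all tested genes and for each list of related genes, with the number tested in parentheses. The Lrp and sorting receptor list has 10 of 13 genes raised, and the transcription factors have 12 of 25 lowered.

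Signalling partners of Cd36 were raised in 13 of 24 tested cases and lowered in 3 (median 0.22, or 0.40 with total reads only), beside 32.2% and 34.8% of all tested genes. Src and Lyn, kinases of the Src family, rose by 1.57 and 0.50, and Vav3, an exchange factor for small GTPases, by 0.89. Map2k4, a kinase upstream of JNK, rose by 0.70, while Map3k1, a kinase above it, fell by 1.14. Zdhhc5, an acyltransferase that palmitoylates Cd36, rose from 43.9 and 44.3 to 72.8 and 67.5 scaled CPM. Cd9, a tetraspanin that associates with Cd36, had 331 and 340 scaled CPM in Gel and 387 and 397 in CuNZ@Gel, a rise of 0.23. Thbs1 and Thbs2, which encode the ligand thrombospondin, were at 0 in all 4 libraries.

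Coat and adaptor genes of endocytosis were raised in 12 of 19 tested cases and lowered in 3 (median 0.18, or 0.37 with total reads only), beside 32.2% and 34.8% of all tested genes. Dab2, a clathrin-associated adaptor, had 63.7 and 65.4 scaled CPM in Gel and 183 and 168 in CuNZ@Gel, a rise of 1.43. Cltc, the clathrin heavy chain, rose by 0.55 and Clta, a clathrin light chain, fell by 0.84. Ap2b1 and Numb, of the clathrin adaptor machinery, both rose by 0.74. Without Gel replicate 2, 5 genes of this list were lowered in place of 3. Of 9 tested genes of receptor shedding, 5 were raised and 2 lowered (median 0.37, 0.56 with total reads only and 0.15 without the filter on low values). Adam8, a metalloprotease of leukocytes, rose by 1.94, from 70.8 and 76.4 to 283 and 286 scaled CPM. Adam17, a protease that cleaves many surface receptors, rose by 0.66, Rhbdf2, which brings it to the surface, by 0.91, and Adam9 by 0.37. Furin, which processes Adam17 and Lrp1 precursors, fell by 0.86. The number of shedding genes lowered was 1 without the filter on low values and 1 without CuNZ@Gel replicate 1.

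Of 11 tested lysosomal membrane genes beside Cd68 and Scarb2, 2 were raised and 3 lowered with the deposited scaling (median 0.00, or 0.19 with total reads only). The shares over all tested genes were 32.2% raised and 34.8% lowered. Lamp2 rose by 0.61 and Gpnmb, a glycoprotein of macrophage lysosomes, fell by 0.58 from 2613 and 2549 scaled CPM. Ctns, the cystine exporter of lysosomes, fell by 0.45. Lamp1, at 1561 and 1559 scaled CPM in Gel and 1394 and 1350 in CuNZ@Gel, was called lowered at -0.19 (limma adjusted p = 0.00957). It did not pass without Gel replicate 1, Gel replicate 2 or CuNZ@Gel replicate 2 (limma adjusted p = 0.0902, 0.0854 and 0.0660), and it was at 0.00 with total reads only (limma adjusted p = 0.957). With total reads only, 7 genes of this list were raised, and with the length and GC correction 6. Over all genes, 5036 were raised with total reads only and 3315 with the correction, against 3737 with the deposited scaling.

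Of the transcription factors linked to these receptors, 12 of 25 tested were lowered and 5 raised (median -0.13), beside 34.8% and 32.2% of all tested genes. With total reads only, 10 were lowered and 7 raised, and the median turned to 0.06. Under that scaling, 2869 of all genes were lowered and 5036 raised, and their median was 0.15. Pparg, the gene of PPAR gamma, was close to 0: it had 0.218 and 0.234 scaled CPM in Gel, and 0 and 0.190 in CuNZ@Gel, at or under the limit that a count of 0 allows. Nfe2l2, the gene of NRF2, fell from 199.9 and 224 to 175 and 163 scaled CPM, by 0.33 (limma adjusted p = 2.77e-04), and was at -0.14 with total reads only (limma adjusted p = 0.0830). Klf4, a factor of alternative activation, fell by 2.51, and Tfeb, a regulator of lysosomal genes, by 1.87. Klf2, Cebpb and Atf3 fell by 1.74, 1.12 and 0.84. The raised factors were Srebf1 (0.666), Srebf2 (0.481), Stat6 (0.435), Rela (0.306) and Mitf (0.213). Spi1, the gene of PU.1, did not pass, at 217 and 205 scaled CPM in Gel and 190 and 209 in CuNZ@Gel (limma adjusted p = 0.267). The sign of Spi1 turned with total reads only (0.11, limma adjusted p = 0.168) and with the length and GC correction (0.19, limma adjusted p = 0.00222). Nr1h3, the gene of the liver X receptor alpha, did not pass, at 6.09 and 4.36 in Gel and 5.74 and 5.14 in CuNZ@Gel (limma adjusted p = 0.764). Without CuNZ@Gel replicate 1, 3 genes of this list were raised in place of 5.

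Of the genes of lipid binding, storage and release, among them PPAR targets, 8 of 25 tested were raised and 7 lowered (median 0.05). These shares were close to those over all tested genes (32.2% and 34.8%). Among those lowered, Dgat2 had less than 1 scaled CPM in both CuNZ@Gel libraries and entered the test through Gel alone. With total reads only, 12 genes of this list were raised and 6 lowered (median 0.24). Of all genes, 5036 were then raised and 2869 lowered (median 0.15). Lpl, lipoprotein lipase, had 443 and 450 scaled CPM in Gel and 1324 and 1362 in CuNZ@Gel, a rise of 1.59. Acsl4, an acyl-CoA synthetase, rose by 1.15 and Lipa, the acid lipase of lysosomes, by 0.78. Plin2, which coats lipid droplets, rose by 0.51. Fabp5, a fatty acid binding protein, fell by 1.30, from 365 and 381 to 154 and 148 scaled CPM. Fabp4, the related protein of adipocytes and macrophages and a known PPAR gamma target, was too low to test, at 0.724 and 1.48 in Gel and 0.757 and 0.825 in CuNZ@Gel. Apoe, a lipid carrier, fell by 2.57. Of the cholesterol exporters, Abcg1 fell by 0.59, and Abca1 had 30.4 and 33.6 in Gel and 28.8 and 25.9 in CuNZ@Gel and did not pass (limma adjusted p = 0.0582). With the length and GC correction Abca1 was at -0.72 (limma adjusted p = 1.22e-06).

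**Figure D5:**
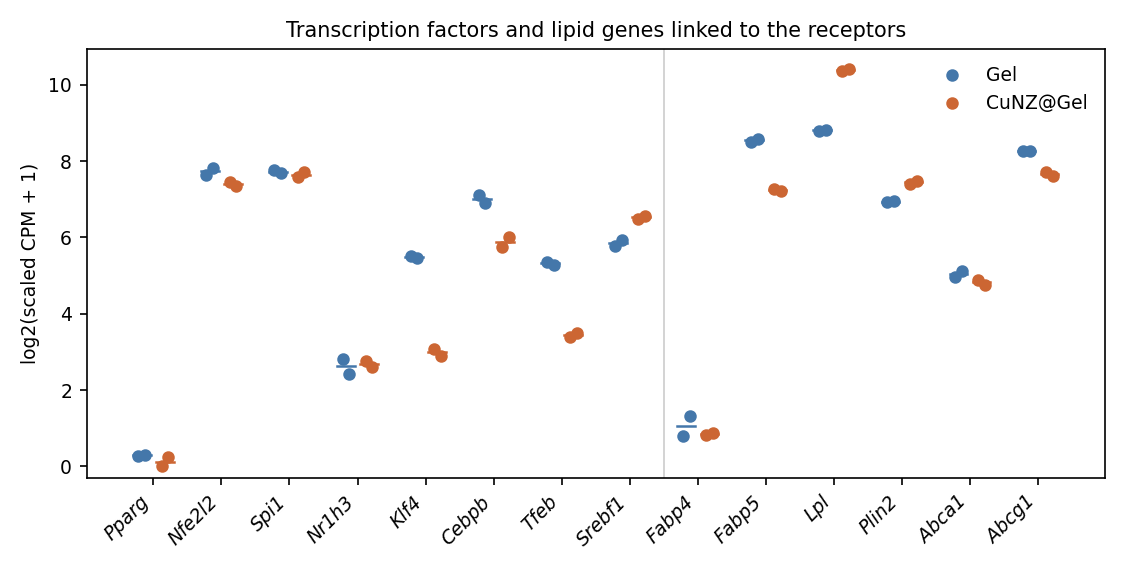
Level of 8 transcription factor genes (left of the line) and 6 lipid genes (right) in the 4 libraries, as log2(scaled CPM + 1); points are libraries and short lines group means. Pparg and Fabp4 lie near the bottom of the axis in both groups, Klf4 and Tfeb are lower in CuNZ@Gel, and Lpl is higher.

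Cd36 and Stab1 are also expressed by endothelial cells, and Cd36 by adipocytes. The 8 endothelial markers summed to 4.42 and 5.22 scaled CPM in Gel and 10.8 and 11.3 in CuNZ@Gel. Of these, 3 could be tested, beside shares of 32.2% raised and 34.8% lowered over all tested genes. Vwf and Pecam1 were raised, by 1.29 and 1.37. Egfl7 was lowered, by 0.76, or by 0.35 with the length and GC correction (limma adjusted p = 0.137). Pecam1, which myeloid cells also express, entered the test through CuNZ@Gel alone. It had 2 reads over both Gel libraries and 57 over both CuNZ@Gel libraries. Its ratio was 24.0, and the exact 95% interval from counting was 6.35 to 203. Cdh5, which defines endothelial junctions, had at most 0.444 scaled CPM, Kdr at most 0.126, and Emcn was at 0. The 6 adipocyte markers summed to at most 0.0777 scaled CPM in any library. The 8 fibroblast markers summed to 0.580 and 0.545 in Gel and 1.51 and 1.27 in CuNZ@Gel. Pdgfrb, the only member tested, was raised by 0.78 (limma adjusted p = 0.00358) and entered the test through CuNZ@Gel alone. The 9 T and B cell markers went from 0.7245 and 1.01 to 2.90 and 2.35 in sum. The 6 epithelial markers went the other way, from 1.09 and 1.87 to 0.504 and 0.571. The 8 neutrophil markers reached at most 0.952 in sum. Of 7 dendritic cell markers, 2 were tested. Itgax, an integrin that macrophages share, rose by 0.64, and Siglech did not pass at -0.48 (limma adjusted p = 0.0562). The sum was 26.2 to 27.9 in Gel and 40.2 to 40.7 in CuNZ@Gel. Most of it was Itgax, with 25.7 and 23.8 scaled CPM in Gel and 39.1 and 38.8 in CuNZ@Gel. In bulk RNA, more cells that express a gene and more RNA per cell cannot be told apart.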

How the data were processed

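RNA from RAW264.7 cells was extracted with TaKaRa RNAiso Plus and made into libraries with the CORALL RNA-seq V2 kit, per the labels' protocols. The submitters' processing notes name GATK, Salmon, STAR, fastp and build GRCm39. Versions, roles, annotation, the normalization, strand use and handling of molecular identifiers were not given in the sources used here. The deposited values were log2 values of scaled CPM plus a pseudocount of 1, 1 per symbol and library. This was read from the values: 92.6% to 93.5% of values of at most 1 scaled CPM were whole multiples of 1 step per library, within 0.02 reads, and that step gave the reads. Intervals and limits cover counting error only.

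A gene that reached 1 scaled CPM in 2 or more libraries was tested with limma 3.58.1 (R 4.3.3, variance trend, group alone), with Benjamini-Hochberg adjustment over 11588 genes and a threshold of 0.05. Limma was tested on simulated data of this comparison, with 11490 genes tested. There, 96% of 50 genes changed by 1.5-fold and 38% of 50 changed by 1.25-fold were called. Only 50 genes per fold were changed there, whereas 67.1% of tested genes were called in the measured libraries. Whether the shares hold with so many changes, or for weakly expressed genes such as Mrc1 and Stab1, was not tested. From each list, up to 5 called members with the smallest p were named, with 20 partner genes and the 10 receptors. Some of these are not reported here. Genes named beyond them were chosen after their values were seen. The receptors and lists were chosen with earlier results of these data known. Alternatives were other scalings, filters, pseudocounts and tests, a length and GC correction (95.8% of tested genes had a GENCODE vM21 transcript), a replicate block and each library left out.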

Additional observations from a re-analysis of the deposited data

How the results depend on the processing

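The 8 tested receptors kept their direction and their side of the threshold in 107 of 111 comparisons with an alternative. The exceptions were Scarb2 and Cd68 against a minimum fold of 1.5, and Cd68 with total reads only (-0.04) and with the length and GC correction, where it turned to 0.077. Other filters, the minimum fold and the replicate blocks left the change itself as it was, so its direction could not turn there. The comparisons include the crossed block named below. The number of receptors raised was 6 against the minimum fold and with the filter at 5 scaled CPM, where Mrc1 was not tested, and 7 otherwise. The number lowered was 0 with total reads only, with the length and GC correction and against the minimum fold, and 1 otherwise. Against the minimum fold, 1015 genes were raised and 940 lowered in all, and raised genes made up 48.1% of calls with the deposited scaling and 63.7% with total reads only. Signs turned for Lamp1 (0.004) and Spi1 (0.105) with total reads only, for Spi1 (0.193) with the length and GC correction, and for Nr1h3 without Gel replicate 2 (-0.14) and without CuNZ@Gel replicate 1 (-0.006), whose highest value with 1 library left out was 0.263. With 1 library left out, Cd36 was at 4.55 to 4.72 and Mrc1 at 1.23 to 1.89. Such fits leave 1 group with a lone library, which is assumed to vary like the others. With the replicate number as a block, 3589 genes were raised and 3900 lowered, with 7 receptors raised and 1 lowered. The numbers do not show a pairing: deviations of same-numbered libraries correlated at -0.116 across genes. A crossed block, added after the data were seen, gave 4030 raised and 4340 lowered genes. Depth limits Marco, Cd163, Pparg and the mannose receptor relatives, which did not pass the filter of the main test. Without the filter, Marco was at 0.044 (limma adjusted p = 0.528) and no mannose receptor relative was called.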
